A study of Drosophila melanogaster with 12 samples.

Results

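Aminoacyl-tRNA synthetases are the enzymes that join each amino acid to its tRNA, and 33 of the 13777 genes in the table code for one by their FlyBase symbol. A gene was taken when its symbol was a 3-letter amino acid code followed by RS, or by RS-m for the mitochondrial enzyme, and GluProRS was added. The rule gave 18 cytosolic and 15 mitochondrial genes and used no measured value.

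Every charged tRNA is first made by such an enzyme, so the set as a whole feeds the ribosome with all its amino acids. Animal mitochondria translate their own mRNAs with their own tRNAs, and most of the enzymes that charge these are separate proteins, encoded in the nucleus, made in the cytosol and imported. Several cytosolic enzymes assemble with the scaffold proteins AIMP1, AIMP2 and AIMP3 into the multisynthetase complex, and in animal cells many synthetase genes are transcribed under ATF4, the transcription factor of the amino acid response.

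The libraries were made by 3′-end sequencing from total RNA (2 ug) of S2R+ cells, an established Drosophila line grown in Schneider medium. The comparison groups are cells transfected with wild-type Elav (ElavWT), wild-type Fne (FneWT) or wild-type Rbp9 (Rbp9WT), the RNA-binding proteins of the ELAV/Hu family, and untreated S2R+ cells, with 2 libraries per group. The transfected cells received Effectene, and the labels give the treatment of the untreated cells as none without saying whether these were mock transfected, so the reagent and the protein cannot be told apart. The study asked how these proteins shape 3′ ends, and its 4 libraries of RRM mutants were left out here. The sources used here do not give the promoter and the 3′ end of the constructs or the share of cells that took them up. Nothing in the labels says that libraries of a group came from separate cultures, so a p-value measures only the spread between these libraries, which may be technical.

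Values are CPM, a gene's reads as a share of its library scaled to a fixed total. A read here marks the end of a transcript, so levels were not divided by transcript length. Recovered depth was 4694825 to 14391952 reads per library, 3 reads being worth 0.208 to 0.639 CPM. Genes named as rRNA took 2.91 to 5.91% of reads in the libraries numbered 1 and 15.4 to 24.8% in those numbered 2, in every group. The row of Rbp9 itself held 713 and 58.8 CPM in Rbp9WT cells, against 3.34 and 2.35 CPM in untreated cells. The row of fne held 97.4 and 48.0 CPM in FneWT cells, against 6.67 and 1.91 CPM in untreated cells, and it also reached 114.8 CPM in Rbp9WT replicate 1 and 49.8 CPM in ElavWT replicate 1. The row of elav held 29.2 and 26.6 CPM in the libraries labelled ElavWT, and 24.9 and 37.3 CPM in those of untreated cells. It did not separate those groups, and since the constructs' 3′ ends are not given, it need not count the transfected mRNA. Of 8 hemocyte markers, the cell type S2R+ cells resemble, Pvr was at 47.8 to 237 CPM and Pxn at 44.4 to 199 CPM, while Hml was at 0.417 to 5.25 CPM and NimC1 was at 0 in 7 of 8 libraries.

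All 33 synthetase genes averaged at least 1 CPM and so entered the tests. The cytosolic genes were the more abundant class in every library. Their median level was 72.3 and 44.9 CPM in ElavWT cells, 61.8 and 39.8 CPM in FneWT cells, 62.2 and 50.8 CPM in Rbp9WT cells, and 99.2 and 58.7 CPM in untreated cells. The mitochondrial median was 14.2 and 17.0 CPM in ElavWT, 12.8 and 13.8 CPM in FneWT, 14.7 and 18.5 CPM in Rbp9WT, and 10.9 and 11.6 CPM in untreated cells. The lowest cytosolic medians were those of replicate 2 in each group, and for the mitochondrial genes both untreated libraries lay below all 6 transfected ones. The log2 distance between the class medians was 1.80 ± 0.66 in ElavWT, 1.82 ± 0.51 in FneWT, 1.71 ± 0.42 in Rbp9WT and 2.65 ± 0.60 in untreated cells (SD, n = 2 each). By library it was 2.26 and 1.34 in ElavWT, 2.19 and 1.46 in FneWT, 2.01 and 1.41 in Rbp9WT, and 3.07 and 2.22 in untreated cells. The SD thus holds the offset between replicate numbers, with replicate 1 higher in every group. ElavWT replicate 1 was above untreated replicate 2. The median of all tested genes in a library was 15.0 to 26.6 CPM, so the cytosolic median stood at 2.32 to 5.25 times that of the library and the mitochondrial one at 0.481 to 1.05 times. On this measure the mitochondrial median was 0.577 and 0.775 in untreated cells, within the 0.481 to 1.05 of transfected ones. The separation of the untreated libraries seen in CPM was thus not kept.

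**Figure D1:**
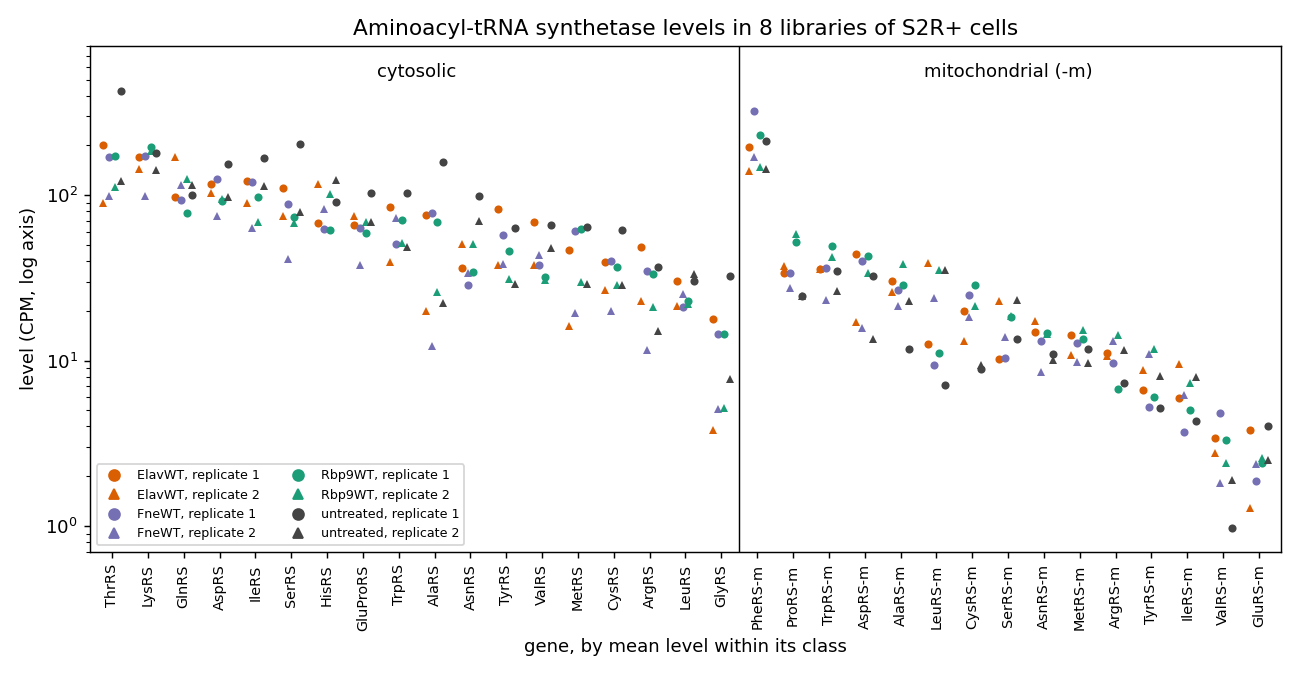
Level of each synthetase gene in CPM (log axis) in all 8 libraries, cytosolic genes left and mitochondrial genes right, each class ordered by its mean. Points are libraries, coloured by group. The cytosolic genes average 12.6 to 174.7 CPM, and PheRS-m at 196 CPM stands apart from the other mitochondrial genes, which reach 36.6 CPM.

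Among the cytosolic genes, ThrRS, which charges tRNA with threonine, had the highest mean level over the 8 libraries at 174.7 CPM. LysRS followed at 161 CPM, GlnRS at 112 CPM, AspRS at 107.8 CPM and IleRS at 105.5 CPM. GluProRS, the bifunctional enzyme for glutamate and proline, averaged 67.8 CPM. LeuRS at 25.8 CPM and GlyRS at 12.6 CPM closed the order. LeuRS had 30.2 and 21.3 CPM in ElavWT, 21.1 and 25.5 CPM in FneWT, 22.8 and 22.1 CPM in Rbp9WT, and 30.4 and 33.3 CPM in untreated cells. In 0 of 17 neighbouring pairs of this order was the upper gene higher in all 8 libraries, so the exact places are within the spread of the libraries. GlyRS was higher in replicate 1 of every group, with 17.8 and 3.83 CPM in ElavWT, 14.4 and 5.09 CPM in FneWT, 14.5 and 5.18 CPM in Rbp9WT, and 32.4 and 7.78 CPM in untreated cells. In humans the cytosolic and mitochondrial forms of glycyl-tRNA synthetase and of lysyl-tRNA synthetase each come from a single gene, and the table has no mitochondrial row for glycine or lysine, nor for glutamine, histidine or threonine.

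The mitochondrial order was led by PheRS-m, the mitochondrial phenylalanine enzyme, at a mean of 196 CPM. It was above ProRS-m, the next gene, in all 8 libraries and made up 32.0 to 58.0% of the summed level of the 15 mitochondrial genes. PheRS-m had 196 and 141 CPM in ElavWT, 322 and 171 CPM in FneWT, 231 and 149 CPM in Rbp9WT, and 213 and 145 CPM in untreated cells. FneWT replicate 1 was highest, and FneWT replicate 2 was below untreated replicate 1, so the groups overlap. The annotated 3′ end of PheRS-m (chromosome arm 2R, 13968308 to 13969902, plus strand) is 8 bp from that of St4 on the opposite strand. St4 had 31.3 and 10.2 CPM in ElavWT, 98.5 and 35.8 CPM in FneWT, 55.0 and 40.6 CPM in Rbp9WT, and 1.88 and 0.587 CPM in untreated cells. The sources used here do not say whether reads were counted by strand, so reads of these genes may not be told apart. Both rows were highest in FneWT replicate 1, and the part of either gene's reads in the other's row was not tested. The cytosolic phenylalanine enzyme is built from separate alpha and beta subunits, whose genes lie outside the naming rule. alpha-PheRS had 14.7 to 42.2 CPM and beta-PheRS 26.6 to 77.2 CPM over the 8 libraries, both below PheRS-m in each of them.

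After PheRS-m came ProRS-m (36.6 CPM), TrpRS-m (35.6 CPM), AspRS-m (30.0 CPM) and AlaRS-m (25.8 CPM). ValRS-m and GluRS-m, the enzymes for valine and for glutamate, were lowest at 2.68 and 2.60 CPM. ValRS-m had 3.38 and 2.77 CPM in ElavWT, 4.85 and 1.82 CPM in FneWT, 3.31 and 2.39 CPM in Rbp9WT, and 0.973 and 1.91 CPM in untreated cells. GluRS-m had 3.81 and 1.28 CPM in ElavWT, 1.86 and 2.36 CPM in FneWT, 2.40 and 2.59 CPM in Rbp9WT, and 4.03 and 2.50 CPM in untreated cells. ArgRS-m was above TyrRS-m, the next gene, in all 8 libraries, which made 2 of 14 neighbouring pairs with PheRS-m, and the other 12 were not ordered the same way throughout. GluRS-m (chromosome arm 3L, 16415292 to 16417177) lies next to the cytosolic TyrRS (16417349 to 16419302) on the minus strand, and the neighbours differed in level: TyrRS averaged 48.3 CPM.

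Set against each other by amino acid, 12 pairs have a cytosolic and a mitochondrial gene. The cytosolic gene was higher in all 8 libraries in 9 of the 12. The exceptions were alanine, with the cytosolic gene higher in 4 of 8 libraries, leucine with 5 and arginine with 7. LeuRS-m had 12.5 and 39.0 CPM in ElavWT, 9.44 and 23.8 CPM in FneWT, 11.2 and 35.5 CPM in Rbp9WT, and 7.09 and 35.5 CPM in untreated cells. It was higher in replicate 2 of every group, whereas its cytosolic counterpart LeuRS kept to 21.1 to 33.3 CPM, so this pair changed order with the replicate number. AlaRS showed the opposite lean and was higher in replicate 1 of every group. It had 76.1 and 20.02 CPM in ElavWT, 78.5 and 12.2 CPM in FneWT, 68.6 and 26.1 CPM in Rbp9WT, and 159.6 and 22.5 CPM in untreated cells.

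The ratio of the cytosolic to the mitochondrial level ranged in its median over the libraries from 1.55 for leucine to 17.0 for valine. For 7 of the 12 amino acids (alanine, asparagine, aspartate, cysteine, isoleucine, methionine and valine) the ratio was lower in all 6 transfected libraries than in the untreated library of the same number. CysRS over CysRS-m was 2.00 and 2.02 in ElavWT, 1.60 and 1.08 in FneWT, 1.28 and 1.33 in Rbp9WT, and 6.90 and 3.03 in untreated cells. AsnRS over AsnRS-m was 2.47 and 2.93 in ElavWT, 2.17 and 3.94 in FneWT, 2.35 and 3.47 in Rbp9WT, and 9.02 and 6.87 in untreated cells. For both amino acids all 6 transfected libraries were below both untreated ones. The same held for ValRS over ValRS-m, at 7.82 to 24.1 in transfected and 68.4 and 25.0 in untreated cells. ValRS-m had only 10 to 39 reads per library. The 3 transfected groups are set against the same 2 untreated libraries, so these differences are not independent of each other, and no test was made on the ratios. How often the ratio of other genes at such levels is lower in all 6 was not counted.

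**Figure D2:**
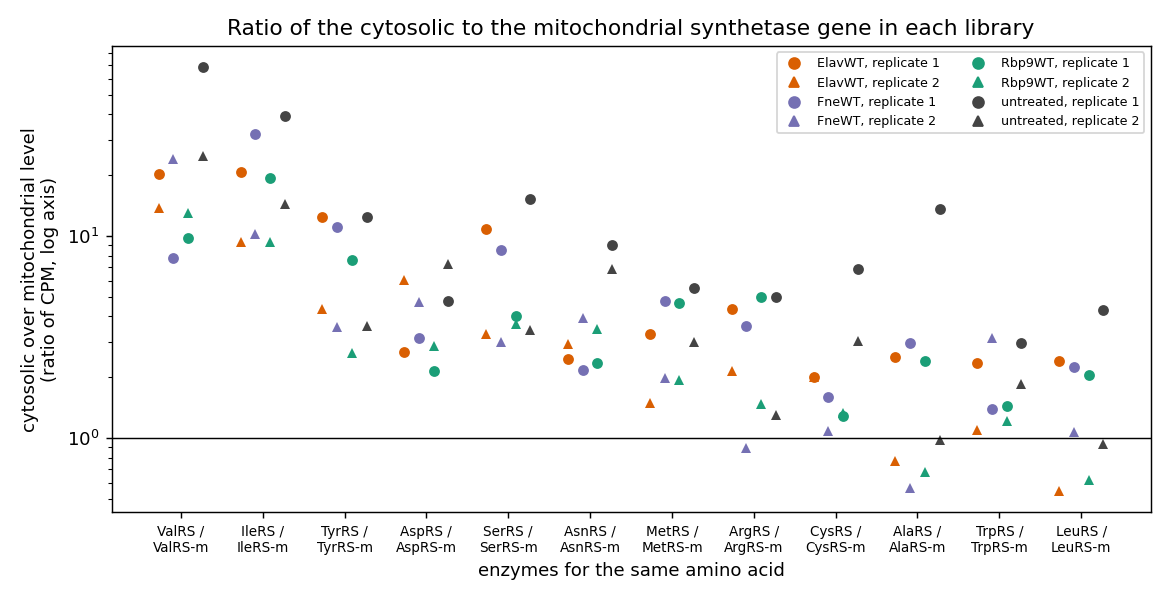
Ratio of the cytosolic to the mitochondrial gene (CPM over CPM, log axis) for the 12 amino acids with both, 1 point per library. The line marks equal levels. Untreated libraries stand highest for asparagine, cysteine and valine, and leucine, alanine and, in FneWT replicate 2, arginine cross the line.

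Against untreated cells, most cytosolic genes lay below the median gene in each transfected group, and the mitochondrial genes were spread around it. Changes are log2 differences of CPM + 1, given relative to the median over all 9114 genes tested, which was itself 0.25 (ElavWT), 0.28 (FneWT) and 0.42 (Rbp9WT) above untreated. The cytosolic median was −0.55 in ElavWT, −0.78 in FneWT and −0.82 in Rbp9WT, with 15, 18 and 18 of 18 genes below the median gene. The mitochondrial median was 0.07, −0.07 and −0.02, with 7, 10 and 8 of 15 genes below it. Tested genes with mean levels within the cytosolic range (4970 genes) had medians of −0.14, −0.15 and −0.12 in ElavWT, FneWT and Rbp9WT, and those within the mitochondrial range (7368 genes) had −0.04, −0.04 and −0.03. These are descriptions of the lists, without a test of them.

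The size of the cytosolic difference went with the replicate number. Between libraries numbered 1 the cytosolic median was −0.83 in ElavWT, −1.08 in FneWT and −1.25 in Rbp9WT, and between those numbered 2 it was −0.21, −0.57 and −0.32. Untreated replicate 1 was the library with the highest cytosolic sum, 2148 CPM, against 895 to 1484 CPM in the transfected libraries and 1195 CPM in untreated replicate 2. In a fit with the replicate number and without untreated replicate 1, the cytosolic median was −0.19 in ElavWT, −0.50 in FneWT and −0.41 in Rbp9WT. Over the 6 differences to the same-numbered untreated library, 12 of 18 cytosolic genes were below the median gene in all 6, and ArgRS, GlnRS, GluProRS, LysRS, TrpRS and TyrRS were on both sides of it. Of the 15 mitochondrial genes, SerRS-m and GluRS-m were below it in all 6 and CysRS-m was above it in all 6. How many of all tested genes keep to the same side in all 6 was not counted. The 6 differences share the same 2 untreated libraries, so they are not independent of each other. In bulk samples such as these, fewer cells of a kind and less RNA per cell cannot be told apart.

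**Figure D3:**
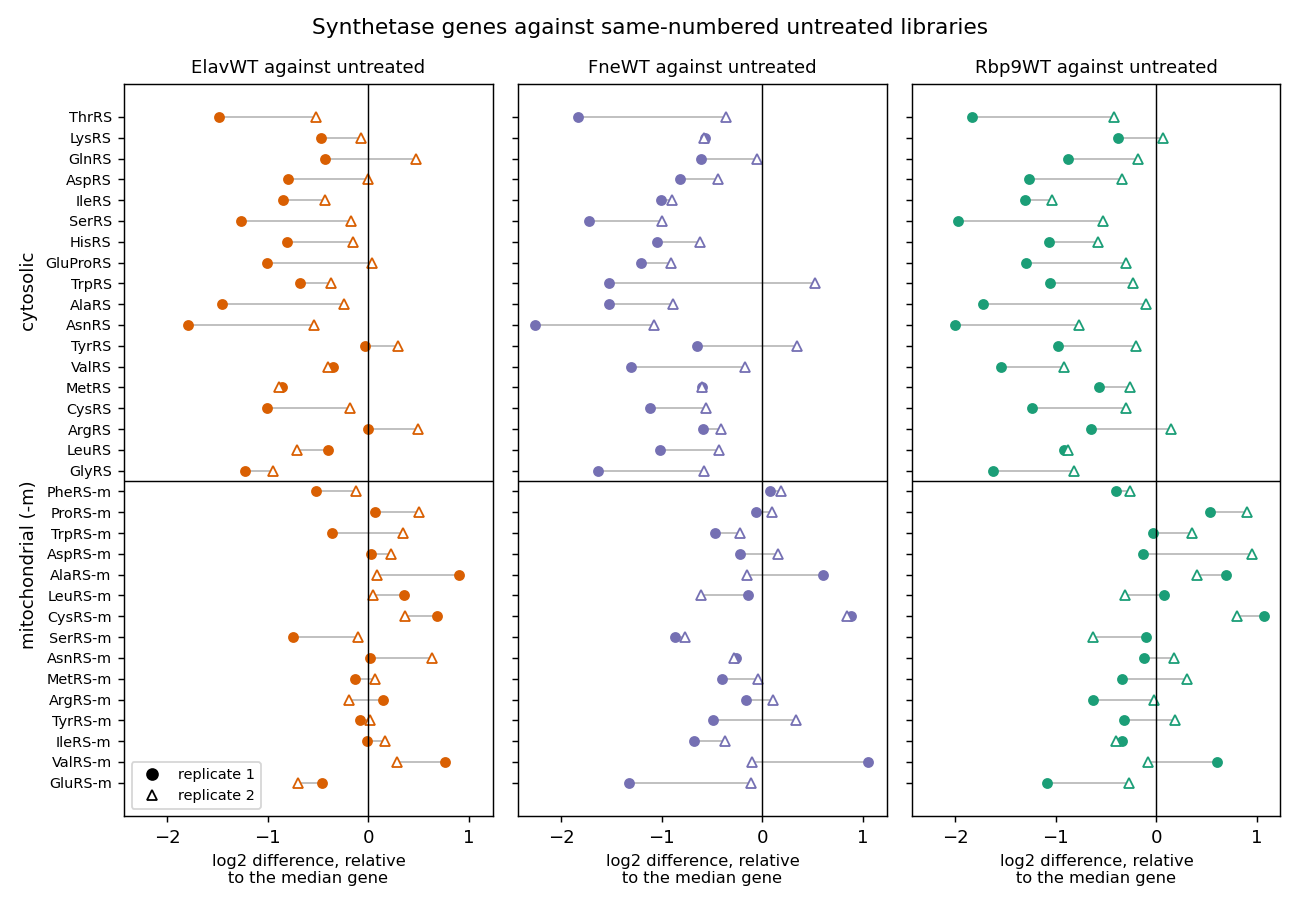
Log2 difference of each synthetase gene from the untreated library of the same number, relative to the median gene, with ElavWT, FneWT and Rbp9WT in separate panels. Points are replicates, and cytosolic genes are above the line across each panel. Cytosolic genes lie mostly left of 0, and mitochondrial genes lie on both sides. The cytosolic medians are −0.83, −1.08 and −1.25 in replicate 1 and −0.21, −0.57 and −0.32 in replicate 2.

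With limma on all 9114 tested genes and group as the only term, no gene of the table passed an adjusted p of 0.05 in any of the 3 comparisons with untreated cells (0.0% of tested genes), and 0 of 33 synthetase genes did. At an unadjusted p under 0.05, limma counted 444 genes in ElavWT (4.87%), 677 in FneWT (7.43%) and 666 in Rbp9WT (7.31%), among them 0, 2 and 3 synthetase genes. edgeR on the recovered reads with the same term also called 0 genes (0.0%), with 829 (9.1%), 1060 (11.6%) and 900 (9.87%) at an unadjusted p under 0.05, among them 1, 6 and 7 synthetase genes. DESeq2 called IleRS, the isoleucine enzyme, lower in FneWT (adjusted p = 0.049) and in Rbp9WT (adjusted p = 0.0099), beside 0.417% and 0.154% of tested genes lower and 4.37% and 2.76% higher. IleRS had 123 and 89.5 CPM in ElavWT, 119.7 and 63.3 CPM in FneWT, 97.7 and 68.5 CPM in Rbp9WT, and 169 and 114 CPM in untreated cells, and FneWT replicate 1 overlaps the untreated libraries. In ElavWT DESeq2 called 0 synthetase genes, beside 0.154% of tested genes lower and 2.73% higher. Libraries of the same number deviated together from their group means, so the fit was also made with the replicate number as a further term. The calls given next rest on that fit, and the group-only fit made none of them. Each change is printed relative to the median gene, while its p tests the change before that shift. As the median gene was above untreated, a rise passes more readily than a fall of the same printed size.

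In the libraries labelled ElavWT, limma with the replicate number called 9.02% of tested genes higher and 1.09% lower than in untreated cells, and 0 of 33 synthetase genes passed. AsnRS, the asparagine enzyme, was closest, with 36.5 and 50.5 CPM in ElavWT against 98.4 and 69.6 CPM in untreated cells. Its change was −1.18 ± 0.30 (SE, adjusted p = 0.0511). Both ElavWT libraries were below both untreated ones for AsnRS and LeuRS, 2 of 18 cytosolic genes, beside 7.33% of all tested genes. For 6 of 15 mitochondrial genes (AlaRS-m, AsnRS-m, CysRS-m, ProRS-m, TrpRS-m and ValRS-m) both ElavWT libraries were above both untreated ones, beside 23.0% of all tested genes. CysRS-m had 19.9 and 13.2 CPM in ElavWT and 8.89 and 9.40 CPM in untreated cells (0.52 ± 0.33, adjusted p = 0.145). AlaRS-m had 30.3 and 25.99 CPM in ElavWT and 11.7 and 23.1 CPM in untreated cells (0.48 ± 0.33, adjusted p = 0.17). ProRS-m had 34.1 and 37.5 CPM in ElavWT and 24.6 and 24.7 CPM in untreated cells (0.27 ± 0.29, adjusted p = 0.276). SerRS, with 111 and 75.2 CPM in ElavWT and 204 and 79.7 CPM in untreated cells, was also below in both pairs of the same number (−0.73 ± 0.31, adjusted p = 0.351).

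In FneWT cells, where 15.1% of tested genes were called higher and 1.94% lower with the replicate number, 3 synthetase genes passed. AsnRS (chromosome arm 2L, 19129469 to 19131954, minus strand, FBgn0086443) had 28.6 and 33.7 CPM in FneWT cells, against 98.4 and 69.6 CPM in untreated cells. It fell by 1.67 ± 0.30 on the log2 scale relative to the median gene (SE, adjusted p = 0.00244, limma with replicate number). SerRS (2L, 3035493 to 3037403, minus strand, FBgn0031497), the serine enzyme, had 88.0 and 41.1 CPM in FneWT cells, against 204 and 79.7 CPM in untreated cells. SerRS fell by 1.35 ± 0.31 relative to the median gene (adjusted p = 0.0186), although FneWT replicate 1 was above untreated replicate 2. CG17260, which overlaps SerRS on the opposite strand, was at 6.82 to 18.5 CPM over the 8 libraries.

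CysRS-m (2R, 14159096 to 14161262, minus strand, FBgn0033900), the mitochondrial cysteine enzyme, was the gene of the set that rose in FneWT. It had 25.1 and 18.4 CPM in FneWT cells, against 8.89 and 9.40 CPM in untreated cells, with no overlap. The change was 0.87 ± 0.33 relative to the median gene (adjusted p = 0.0164). CG13016, which overlaps it on the opposite strand, had 64.1 and 59.1 CPM in FneWT cells, against 52.9 and 78.6 CPM in untreated cells. The libraries did not overlap for 5 of 18 cytosolic genes, all lower in FneWT (AsnRS, GluProRS, HisRS, LeuRS and ValRS), beside 8.06% of tested genes. Of the mitochondrial genes CysRS-m and ProRS-m were higher without overlap, beside 25.3% of tested genes, and GluRS-m was lower. ProRS-m had 34.0 and 27.5 CPM in FneWT cells, and AlaRS-m had 26.7 and 21.5 CPM, and neither passed (adjusted p = 0.496 and 0.293).

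In Rbp9WT cells 17.7% of tested genes were called higher and 0.735% lower with the replicate number, and 4 synthetase genes passed. Of these, 3 were mitochondrial and rose. CysRS-m had 28.8 and 21.5 CPM in Rbp9WT against 8.89 and 9.40 CPM in untreated cells, a change of 0.94 ± 0.33 relative to the median gene (adjusted p = 0.0048). ProRS-m (3L, 2650161 to 2651850, minus strand, FBgn0027082), the proline enzyme whose cytosolic counterpart is part of the fused GluProRS, had 52.0 and 58.4 CPM in Rbp9WT against 24.6 and 24.7 CPM in untreated cells. Its change was 0.72 ± 0.29 (adjusted p = 0.00828), with both Rbp9WT libraries well above both untreated ones. CG1246, on the opposite strand and overlapping ProRS-m, had 7.19 and 1.39 CPM in Rbp9WT against 0.139 and 0.441 CPM in untreated cells.

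AlaRS-m (3L, 5146098 to 5149852, plus strand, FBgn0028962), the mitochondrial alanine enzyme, had 28.5 and 38.4 CPM in Rbp9WT against 11.7 and 23.1 CPM in untreated cells. The change was 0.55 ± 0.33 relative to the median gene, and the p tests the larger change before that shift (adjusted p = 0.0433, limma with replicate number). Its 3′ end is 3 bp from that of Gen on the opposite strand, which had 1.83 and 13.5 CPM in Rbp9WT against 2.02 and 11.2 CPM in untreated cells. AsnRS was the cytosolic gene that passed, with 34.6 and 50.4 CPM in Rbp9WT against 98.4 and 69.6 CPM in untreated cells, and fell by 1.39 ± 0.30 relative to the median gene (adjusted p = 0.0276). SerRS did not pass at 73.8 and 68.3 CPM in Rbp9WT against 204 and 79.7 CPM in untreated cells (−1.25 ± 0.31, adjusted p = 0.061). Without overlap, 6 of 18 cytosolic genes were lower (AsnRS, AspRS, IleRS, LeuRS, SerRS and ValRS), beside 5.98% of tested genes. LysRS was higher without overlap, and so were 8 of 15 mitochondrial genes, beside 33.5% of tested genes.

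**Figure D4:**
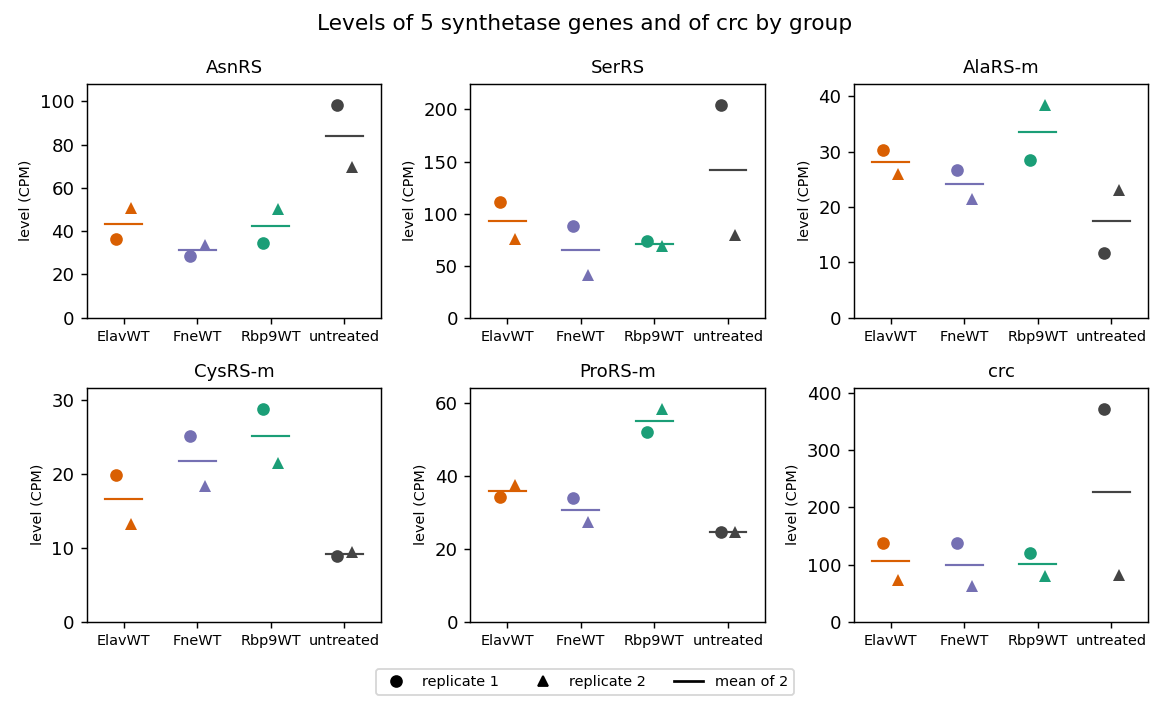
Level in CPM of AsnRS, SerRS, CysRS-m, ProRS-m, AlaRS-m and of crc, the fly ATF4, by group. Points are libraries, told apart by replicate number, and bars are means of 2. AsnRS is lowest in FneWT (28.6 and 33.7 CPM), and CysRS-m and ProRS-m are highest in Rbp9WT.

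These calls depend on how libraries are scaled. With median-ratio scaling in place of CPM and the replicate number kept, the median of all genes lay 0.03, 0.00 and 0.02 above untreated in ElavWT, FneWT and Rbp9WT. In ElavWT, AsnRS and MetRS were then lower, 2 of 18 cytosolic genes, beside 2.91% of tested genes lower and 7.69% higher. In FneWT, 9 of 18 cytosolic genes were lower (GluProRS, ThrRS, IleRS, HisRS, GlyRS, CysRS, AlaRS, SerRS and AsnRS), beside 6.67% of tested genes lower and 12.1% higher. In Rbp9WT, 8 of 18 were lower (ValRS, ThrRS, IleRS, HisRS, GlyRS, SerRS, AsnRS and LeuRS), beside 4.99% lower and 10.3% higher. CysRS-m was the only mitochondrial gene called, higher in FneWT and Rbp9WT, and the calls of ProRS-m (adjusted p = 0.0724) and AlaRS-m (adjusted p = 0.203) in Rbp9WT were lost. TMM scaling and the count tests, each with the replicate number, called more of the cytosolic genes. With TMM scaling, 4 of 18 were lower in ElavWT, 10 in FneWT and 12 in Rbp9WT, beside 5.17%, 10.8% and 8.31% of tested genes lower, while 7.07%, 11.6% and 10.0% were higher. edgeR called 5, 9 and 12 of 18 lower, beside 5.73%, 10.2% and 8.72% of tested genes lower and 11.1%, 15.7% and 13.7% higher. DESeq2 called 3, 9 and 9 of 18 lower, beside 4.17%, 8.25% and 7.22% of tested genes lower and 10.7%, 14.5% and 13.2% higher. Of the mitochondrial genes, edgeR and DESeq2 each called 0 in ElavWT, 1 in FneWT and 1 in Rbp9WT, higher. TMM scaling called 0, 0 and 1, so the call of CysRS-m in FneWT was lost (adjusted p = 0.063) and that in Rbp9WT was kept (adjusted p = 0.0494). In every fit run on all 8 libraries, the cytosolic genes called against untreated cells were lower and the mitochondrial genes called were higher. The mitochondrial calls were at most 3 of 15, in Rbp9WT with limma on CPM and the replicate number. In that fit 17.7% of all tested genes were higher, so these calls do not set the mitochondrial class apart. The calls also rest on single libraries. With limma on CPM and the replicate number, 0 synthetase genes passed in any of the 3 comparisons without untreated replicate 1. Without untreated replicate 2, 3 were higher and 3 lower in ElavWT, beside 25.5% of tested genes higher and 5.09% lower. The counts were then 3 higher and 5 lower in FneWT, beside 31.6% and 6.63%, and 3 higher and 4 lower in Rbp9WT, beside 33.8% and 3.93%. The change of AsnRS was −1.06 in FneWT and −0.75 in Rbp9WT without untreated replicate 1, and −2.28 and −2.01 without untreated replicate 2. That of SerRS in FneWT was −0.81 without untreated replicate 1 and −1.90 without untreated replicate 2, and that of AlaRS-m in Rbp9WT was 0.26 and 0.84 in the same order.

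Genes that did not pass on the CPM scale included some of the largest differences. ThrRS had 201 and 89.9 CPM in ElavWT, 171 and 98.8 CPM in FneWT, 172 and 113 CPM in Rbp9WT, and 429 and 122 CPM in untreated cells. Its changes relative to the median gene were −1.01, −1.09 and −1.13 ± 0.31 (adjusted p = 0.125, 0.0739 and 0.111), and all 6 transfected libraries were below the untreated library of their number. The differences of GlyRS were −1.10, −1.10 and −1.22 ± 0.37 (adjusted p = 0.153, 0.124 and 0.128). At the other end, LysRS had 169 and 143 CPM in ElavWT, 173 and 99.1 CPM in FneWT, 197 and 185 CPM in Rbp9WT, and 179 and 143 CPM in untreated cells. Only its Rbp9WT libraries were above both untreated ones, beside 33.5% of tested genes. Among the mitochondrial genes, SerRS-m had 10.3 and 23.0 CPM in ElavWT, 10.3 and 13.8 CPM in FneWT, 18.4 and 18.5 CPM in Rbp9WT, and 13.5 and 23.4 CPM in untreated cells. Each transfected group overlaps untreated cells for it. GluRS-m and ValRS-m had the lowest levels, and their standard errors of 0.51 were the widest of the set.

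Between the proteins, 0 of 33 synthetase genes passed in any pair, with or without the replicate number. With group as the only term limma called 0 genes in each pair (0.0% of tested genes), and 62 (0.68%), 88 (0.966%) and 25 (0.274%) at an unadjusted p under 0.05 in FneWT against ElavWT, Rbp9WT against ElavWT and Rbp9WT against FneWT. With the replicate number the higher and lower calls were 0.165% and 0.011%, 0.56% and 0.0329%, and 0.0% and 0.0% of tested genes. The gene closest to a difference in Rbp9WT against FneWT was ProRS-m, with 52.0 and 58.4 CPM in Rbp9WT against 34.0 and 27.5 CPM in FneWT. That change was 0.71 ± 0.29 relative to the median gene (adjusted p = 0.765, limma with replicate number). For AsnRS, Rbp9WT libraries at 34.6 and 50.4 CPM were above FneWT libraries at 28.6 and 33.7 CPM (0.30 ± 0.30, adjusted p = 0.951). Without overlap, FneWT was below ElavWT for AsnRS and GluProRS among the cytosolic genes and for AsnRS-m and ProRS-m among the mitochondrial ones, beside 6.53% of tested genes. Rbp9WT was above FneWT for 7 of 15 mitochondrial genes, beside 10.7% of tested genes, and for 2 of 18 cytosolic genes, AsnRS and LysRS, and it was below FneWT for ValRS, beside 4.6% of tested genes. Rbp9WT was above ElavWT for LysRS, CysRS-m, ProRS-m and TrpRS-m, beside 15.1% of tested genes, and below it for AspRS, SerRS, ValRS and AsnRS-m, beside 5.39%.

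Other genes of tRNA charging and use were called on the CPM scale with the replicate number, in a fit where 9.02%, 15.1% and 17.7% of tested genes were higher and 1.09%, 1.94% and 0.735% lower in ElavWT, FneWT and Rbp9WT. Of the partners of the synthetases, the subunits alpha-PheRS and beta-PheRS, the scaffold proteins AIMP1 to AIMP3 and Slimp, a relative of mitochondrial SerRS that has lost charging activity, 0 of 6 passed in any comparison with untreated cells. AIMP3 had 70.0 and 68.1 CPM in Rbp9WT against 40.6 and 38.2 CPM in untreated cells (0.38 ± 0.31, adjusted p = 0.0782). It was higher without overlap, beside 33.5% of tested genes. Of 6 mitochondrial helpers, GatA, GatB and GatC, which convert mischarged glutamyl-tRNA to glutaminyl-tRNA, and the elongation factors mEFTu1, mEFTu2 and mEFTs, 0 passed. Of 5 subunits of the factor that delivers charged tRNA to the cytosolic ribosome, eEF1alpha2 rose in FneWT, with 16.2 and 7.09 CPM in FneWT cells, against 1.46 and 3.38 CPM in untreated cells (1.57 ± 0.53, adjusted p = 0.0193). eEF1alpha1, the abundant form, had 4788 and 7267 CPM in ElavWT, 4399 and 5893 CPM in FneWT, 4491 and 6503 CPM in Rbp9WT, and 8887 and 7324 CPM in untreated cells. Of 14 tested genes of tRNA processing and modification, RNaseZ, which trims the 3′ end of tRNA precursors, rose in Rbp9WT, with 34.9 and 15.1 CPM against 19.2 and 4.26 CPM in untreated cells (0.81 ± 0.34, adjusted p = 0.014). Its groups overlap, and with median-ratio scaling the call was lost (adjusted p = 0.0843). On that scaling La, which binds the 3′ end of newly made tRNA, was lower in FneWT (−0.89, adjusted p = 0.0497), beside 6.67% of tested genes. La had 193 and 96.6 CPM in FneWT cells, against 336 and 128 CPM in untreated cells.

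In the amino acid response, 0 of 8 listed genes passed in ElavWT and FneWT, and 1 of 8 was higher in Rbp9WT, beside 17.7% of all tested genes. Gcn2, the kinase that senses uncharged tRNA, rose in Rbp9WT, with 27.2 and 31.9 CPM against 10.0 and 17.5 CPM in untreated cells (0.68 ± 0.33, adjusted p = 0.0208, limma with replicate number). With median-ratio scaling that call was lost as well (adjusted p = 0.12). crc had 138 and 73.3 CPM in ElavWT, 137 and 61.7 CPM in FneWT, 120 and 80.1 CPM in Rbp9WT, and 371 and 81.5 CPM in untreated cells. It passed with median-ratio scaling, lower in FneWT (−1.21, adjusted p = 0.0231) and in Rbp9WT (−1.27, adjusted p = 0.0243). In that fit 6.67% and 4.99% of tested genes were lower in FneWT and Rbp9WT. On that scaling Thor, a repressor of translation initiation, was lower in Rbp9WT (adjusted p = 0.0374). Like ThrRS and AlaRS, crc was highest in untreated replicate 1. AsnS, asparagine synthetase, which makes the amino acid that AsnRS uses, had 13.0 and 26.8 CPM in ElavWT, 12.2 and 17.5 CPM in FneWT, 15.1 and 29.1 CPM in Rbp9WT, and 36.5 and 19.97 CPM in untreated cells. Both FneWT libraries were below both untreated ones, beside 8.06% of tested genes, while ElavWT and Rbp9WT overlap them.

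Markers of other cell types were measured in the same libraries. The summed level of 6 neuronal markers was 279 and 107 CPM in ElavWT, 313 and 96.0 CPM in FneWT, 335 and 78.9 CPM in Rbp9WT, and 120 and 53.8 CPM in untreated cells. For this sum all 6 transfected libraries were above the untreated library of their number, while the ranges of the groups overlap. The largest part was para, at 64.3 to 214 CPM in transfected and 65.3 and 44.9 CPM in untreated cells. The members did not all follow the sum. In replicate 1 nSyb was at 34.7 CPM in untreated cells, against 13.4 CPM in ElavWT, 21.2 CPM in FneWT and 12.2 CPM in Rbp9WT. In replicate 2 brp was at 1.03 CPM in untreated cells, against 0.728 CPM in FneWT and 0.598 CPM in Rbp9WT. With the replicate number, 2 of the 6 neuronal markers passed as higher for ElavWT, 3 for FneWT and 2 for Rbp9WT. Of all tested genes, 9.02%, 15.1% and 17.7% were called higher in the same order. The 5 muscle markers summed to 7.88 to 63.6 CPM in ElavWT, 11.5 to 85.1 CPM in FneWT, 7.17 to 55.8 CPM in Rbp9WT and 1.47 to 6.53 CPM in untreated cells. The 5 fat body markers, of which Fbp1 was at 0 in all 8 libraries, summed to 10.2 to 12.3, 12.01 to 19.8, 9.36 to 14.2 and 1.81 to 5.58 CPM in ElavWT, FneWT, Rbp9WT and untreated cells. For the muscle and fat body sums every transfected library was above both untreated ones. The muscle sum was higher in replicate 1 of every group, and Rbp9WT replicate 2, at 7.17 CPM, was close to untreated replicate 1, at 6.53 CPM. Some members did not follow the sums. In replicate 2, up was at 0.199 CPM in Rbp9WT and 0.588 CPM in untreated cells, and Yp1 at 0.797 and 0.881 CPM. Taken singly, 23.0%, 25.3% and 33.5% of tested genes were higher without overlap in ElavWT, FneWT and Rbp9WT. With the replicate number 2, 3 and 2 of 4 tested muscle markers were higher in these groups. So were 0, 2 and 1 of 3 tested fat body markers, beside the shares of tested genes just given for that fit. The 8 hemocyte markers summed to 231 to 258, 286 to 387, 366 to 433 and 356 to 399 CPM in ElavWT, FneWT, Rbp9WT and untreated cells. Of the 7 tested, 1 was lower in ElavWT, beside 1.09% of tested genes. In FneWT 2 were higher and in Rbp9WT 2, beside 15.1% and 17.7%. The part of these differences in the synthetase results was not tested.

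In the annotation the classes differed in their surroundings more than in transcript length. Another gene overlaps 11 of 15 mitochondrial genes and 6 of 18 cytosolic ones, and the overlap is on the opposite strand for 11 and 5. The nearest 3′ end of another protein-coding gene is within 100 bp, on the opposite strand, for 9 mitochondrial and 5 cytosolic genes. The median of the longest annotated 3′ UTR was 310 bases in the mitochondrial class and 153 bases in the cytosolic class, while the longest transcript had a median of 2552 and 2500 bases. A single annotated 3′ end was listed for 9 of 15 mitochondrial and 15 of 18 cytosolic genes. Of the genes that passed with the replicate number, AsnRS and CysRS-m have 2 annotated 3′ ends and SerRS, ProRS-m and AlaRS-m have 1, and the gene-level CPM does not tell the ends apart.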

How the data were processed

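The 8 libraries were 3′-end sequencing libraries of S2R+ cells, grouped by their titles. The authors deposited CPM per gene, on build dm6 per the submitters' processing notes. For the aligner, the counter and the use of strand: not given in the sources used here. Members and lists were chosen with earlier results of these data known. Values in every library are given for members that passed with group alone in any tool or with the replicate number in limma, for the 2 highest and the 2 lowest of each class by mean CPM, and for the 2 of each class with the largest relative change. From the other lists the partners and genes that passed are named. AlaRS, LeuRS-m, eEF1alpha1, crc, Thor, La and AsnS were given after their values were seen.

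From the deposited CPM, whole reads were recovered (100% of values within 0.01 read). Gene symbols, positions and 3′ ends are those of the Ensembl annotation (13684 of 13777 identifiers matched, 93 not). The 9114 genes averaging 1 CPM or more were fitted with limma 3.58.1 (R 4.3.3, trend and robust) on log2(CPM + 1), which understates changes of low genes, over all 8 libraries with group only (4 residual degrees of freedom), passing at a Benjamini-Hochberg adjusted p under 0.05. The p tests the unshifted change. Standard errors are those of the fit with the replicate number (3 residual degrees of freedom). Same-numbered libraries correlated at 0.55 to 0.869 in their deviations from group means in all 6 group pairs, and the labels do not say what a number shares, so the pairing rests on these data. The recovered reads were also tested with edgeR 4.0.16 and DESeq2 1.42.0. Alternatives were another pseudocount, filter or scaling, rRNA-named genes left out, and each library left out in turn. The scripts were tested on simulated data.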

Additional observations from a re-analysis of the deposited data

How the results depend on the processing

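With 2 libraries per group and 3 or 4 residual degrees of freedom, the group-only calls of 0 synthetase genes say little about how steady a difference is. The number that passed with the replicate block was 0 in ElavWT, 3 in FneWT and 4 in Rbp9WT. Adding median-ratio scaling to the block gave 2, 10 and 9, beside 7.69%, 12.1% and 10.3% of tested genes higher and 2.91%, 6.67% and 4.99% lower. TMM scaling gave 4, 10 and 13, beside 7.07%, 11.6% and 10.0% higher and 5.17%, 10.8% and 8.31% lower. edgeR with the block gave 5, 10 and 13, beside 11.1%, 15.7% and 13.7% higher and 5.73%, 10.2% and 8.72% lower. DESeq2 with the block gave 3, 10 and 10, beside 10.7%, 14.5% and 13.2% higher and 4.17%, 8.25% and 7.22% lower. The block without rRNA-named genes gave 0, 3 and 4, beside 8.72%, 16.02% and 16.7% of tested genes higher and 0.989%, 1.6% and 0.837% lower. With no filter on low values it gave 0, 3 and 2, beside 4.7%, 9.2% and 9.78% higher and 0.324%, 0.664% and 0.299% lower. With a mean of at least 5 CPM it gave 0, 3 and 3, beside 8.08%, 13.1% and 17.6% higher and 1.09%, 1.98% and 0.797% lower. DESeq2 without the block gave 0, 1 and 1, beside 2.73%, 4.37% and 2.76% higher and 0.154%, 0.417% and 0.154% lower. Leaving out each library in turn, with limma on CPM and the block, gave 0 to 6 in ElavWT, 0 to 8 in FneWT and 0 to 7 in Rbp9WT. In those fits the share of tested genes called higher was 2.91 to 25.5%, 2.6 to 31.6% and 5.86 to 33.8%. The share called lower was 0.207 to 5.09%, 0.228 to 6.63% and 0.0888 to 3.93%. In these limma fits the count was 0 in each comparison without untreated replicate 1, beside 2.91%, 5.22% and 5.86% of tested genes higher and 0.207%, 0.228% and 0.185% lower. Leaving out libraries was not run with the other scalings or the count tests. The count in FneWT was 0 without FneWT replicate 1, and that in Rbp9WT was 0 without either Rbp9WT library.

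The cytosolic median change stayed below 0 in every setting run, including each library left out. The mitochondrial median in ElavWT was 0.135 with no filter and 0.179 with a mean of at least 5 CPM, and in FneWT it was 0.0531 with that stricter filter, with or without the block. Leaving out libraries with group alone gave −0.283 to 0.433 for ElavWT, −0.41 to 0.132 for FneWT and −0.262 to 0.325 for Rbp9WT. With the block it gave −0.116 to 0.167, −0.305 to −0.0134 and −0.139 to 0.189, so that FneWT kept its sign. With group alone, the same step turned the sign of AlaRS-m (−0.144 to 1.05 in ElavWT, −0.41 to 0.771 in FneWT and −0.11 to 1.12 in Rbp9WT), of ProRS-m (−0.0701 to 0.637 in ElavWT and −0.208 to 0.222 in FneWT) and of SerRS-m (−1.26 to 0.405 in ElavWT and −0.938 to 0.124 in Rbp9WT). With the block the sign was kept for AlaRS-m in ElavWT (0.182 to 0.804) and Rbp9WT (0.257 to 0.844), for ProRS-m in ElavWT (0.121 to 0.443) and for SerRS-m in ElavWT (−0.828 to −0.0336). It turned for AlaRS-m in FneWT (−0.0806 to 0.545), ProRS-m in FneWT (−0.137 to 0.182) and SerRS-m in Rbp9WT (−0.756 to 0.0351). ProRS-m in FneWT was −0.000893 with edgeR and the block. The replicate block and the other alternatives gave no call between the proteins. Of the settings with the block, those with TMM, edgeR, DESeq2, other filters or rRNA-named genes left out were chosen after seeing the data, and the cause of these changes was not tested. Depth limits the lowest genes, GluRS-m and ValRS-m.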
